A study of Homo sapiens with 8 samples.

Results

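The genes described here are those of the cell's answer to low oxygen and of the breakdown of glucose to lactate. A list of 42 genes was taken by gene symbol, older symbols included, with 20 genes of the hypoxia response and 22 of glucose transport, glycolysis and its control. Of these, 40 had a probe on both array platforms, with 64 Illumina probes and 88 Affymetrix probe sets, out of 18852 genes on the Illumina arrays and 19775 on the Affymetrix arrays. The carbonic anhydrase CA9 and the lactate exporter SLC16A3 were not analysed here.

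The study profiled total RNA from human breast cancer cells grown in DMEM with serum, on 8 arrays in 4 groups of 2. LM2, a highly metastatic derivative of the MDA-MB-231 line, was measured against the poorly metastatic parental MDA-MB-231 on Illumina bead arrays. LM2 cells with miR-126 (labelled LM2-miR126) were measured against LM2 control cells on Affymetrix arrays. LM2 is thus the background of both groups in the second comparison. The labels name neither the vector that carries miR-126, nor what the control cells carry, nor whether either is a single clone. The letters A and B of the arrays are those of their titles. Nothing in the labels says that A and B are separate cultures, and the spread behind each p-value may therefore be technical.

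Hypoxia-inducible factors (HIFs) are transcription factors made of an alpha subunit, such as HIF1A or EPAS1 (HIF-2 alpha), and the partner ARNT. In oxygenated cells the prolyl hydroxylases EGLN1 to EGLN3 mark the alpha subunit for VHL-dependent destruction, so that its activity is set mostly at the protein level. When oxygen is low, the stabilised factor binds a short DNA element and raises genes of glucose uptake, of glycolysis, of acid handling, of mitophagy and of secreted peptides such as adrenomedullin (ADM). Many cancer lines run glycolysis at a high rate with oxygen present, and the level of hypoxia-response transcripts in culture is known to change with cell density and with the state of the medium.

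The mature miR-126 sequences are shown because they define the second comparison, with the seed (bases 2 to 8) in capitals. They are credited to RefSeq on GRCh38.p14, where they lie on the plus strand at chr9:136670653-136670674 and chr9:136670616-136670636. The 2 arms have different seeds.
hsa-miR-126-3p: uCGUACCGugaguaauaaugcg
hsa-miR-126-5p: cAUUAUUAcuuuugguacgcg

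The core of the HIF element is ACGTG or GCGTG. Both were searched on both strands in the 250 bases before each RefSeq gene start on GRCh38.p14, and 35 of the 40 measured genes matched the promoter table, with 62 windows. At least 1 core was found in 39 of the 62 windows (62.9%), against 43.2% of all 35116 windows of the same length. ACGTG alone was in 38.7% of the genes' windows and in 18.5% of all windows, and GCGTG alone in 41.9% and 32.2%. Over genes, 30 of 35 had a core in some window. Genes with several windows, such as HK1 with 7, have more chances of a match. No share over all genes was counted, so the shares of windows are no measure for this count. Such a match is a description of the letters and not a bound site, and no adjustment was made for base composition. The 3 windows below belong to genes described further on. ALDOC was the gene that passed the test in LM2 and that differed most between the miR-126 arrays. ADM had the next largest group difference in LM2 and did not pass the main test. DDIT4 had the lowest mean log2 difference of the list in miR-126 cells, which came from array A, and its groups overlapped. Capitals mark the core in either orientation. They lie at chr17:28576896-28577145 on the minus strand (ALDOC), chr11:10304823-10305072 on the plus strand (ADM) and chr10:72273674-72273923 on the plus strand (DDIT4).
ALDOC: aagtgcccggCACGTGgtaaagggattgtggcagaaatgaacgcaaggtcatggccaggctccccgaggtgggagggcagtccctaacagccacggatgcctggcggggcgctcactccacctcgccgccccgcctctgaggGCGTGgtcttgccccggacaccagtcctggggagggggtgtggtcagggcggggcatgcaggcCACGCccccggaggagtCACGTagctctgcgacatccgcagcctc
ADM: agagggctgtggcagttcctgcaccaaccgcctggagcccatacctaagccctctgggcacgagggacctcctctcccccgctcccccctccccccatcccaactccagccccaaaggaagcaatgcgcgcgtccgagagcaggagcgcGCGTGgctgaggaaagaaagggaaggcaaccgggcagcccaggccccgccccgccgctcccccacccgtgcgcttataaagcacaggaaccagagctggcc
DDIT4: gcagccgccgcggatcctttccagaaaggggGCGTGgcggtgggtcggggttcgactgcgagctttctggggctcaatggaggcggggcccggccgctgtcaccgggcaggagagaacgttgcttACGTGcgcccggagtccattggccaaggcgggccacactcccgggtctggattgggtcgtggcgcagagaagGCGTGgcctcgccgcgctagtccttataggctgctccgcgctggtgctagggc
The ALDOC window held 5 matches, of which 2 overlap in a palindrome read on both strands. DDIT4 held 3 matches and ADM 1.

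The arrays of a group were not equally alike. Averaged over all genes tested, arrays A and B differed by 0.284 log2 in miR-126 cells, against 0.0871 log2 in control cells, and by 0.188 log2 in LM2 and 0.248 log2 in MDA-MB-231. VIM, CD44, EGFR, KRT18 and KRT8, markers of this line, were above the filter on low values on both platforms, as was ERBB2. Of the receptors and adhesion genes known to be low in this line, PGR was below it on both, and CDH1 and ESR1 were each above it on 1. Of the blood, endothelial, lung epithelial and melanocytic markers with a probe, 2 of 4, 2 of 5, 1 of 4 and 0 of 3 were above the filter on the Illumina arrays, and 2 of 3, 3 of 5, 2 of 4 and 2 of 3 on the Affymetrix arrays. PTPRC (blood), CDH5 (endothelium) and MLANA (melanocytes) were below it on both, and SFTPC (lung) on the Illumina arrays. Other markers of these lists were above it on the Affymetrix arrays, namely CD14, CD3E, PECAM1, VWF, TEK, PMEL, TYR, SFTPC and SFTPB. All 6 fibroblast markers were above it on the Illumina arrays, with summed intensities of 831 to 1048 in LM2 and 612 to 790 in MDA-MB-231, and 3 of 6 on the Affymetrix arrays. In LM2 against MDA-MB-231, 4 of these 6 had a log2 difference below 0 (58.2% of all genes), with a median of -0.13. The largest was 1.94, and 1 marker passed the test described below as higher in LM2. The sums therefore do not stand for the list as a whole. Summed over the luminal markers KRT19, EPCAM and CLDN4, intensity was 2350 to 4213 in LM2 and 5710 to 8562 in MDA-MB-231, and 13.4 to 19.7 in miR-126 cells and 29.01 to 31.1 in control cells. The part of these markers in the results below was not tested.

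**Figure D1:**
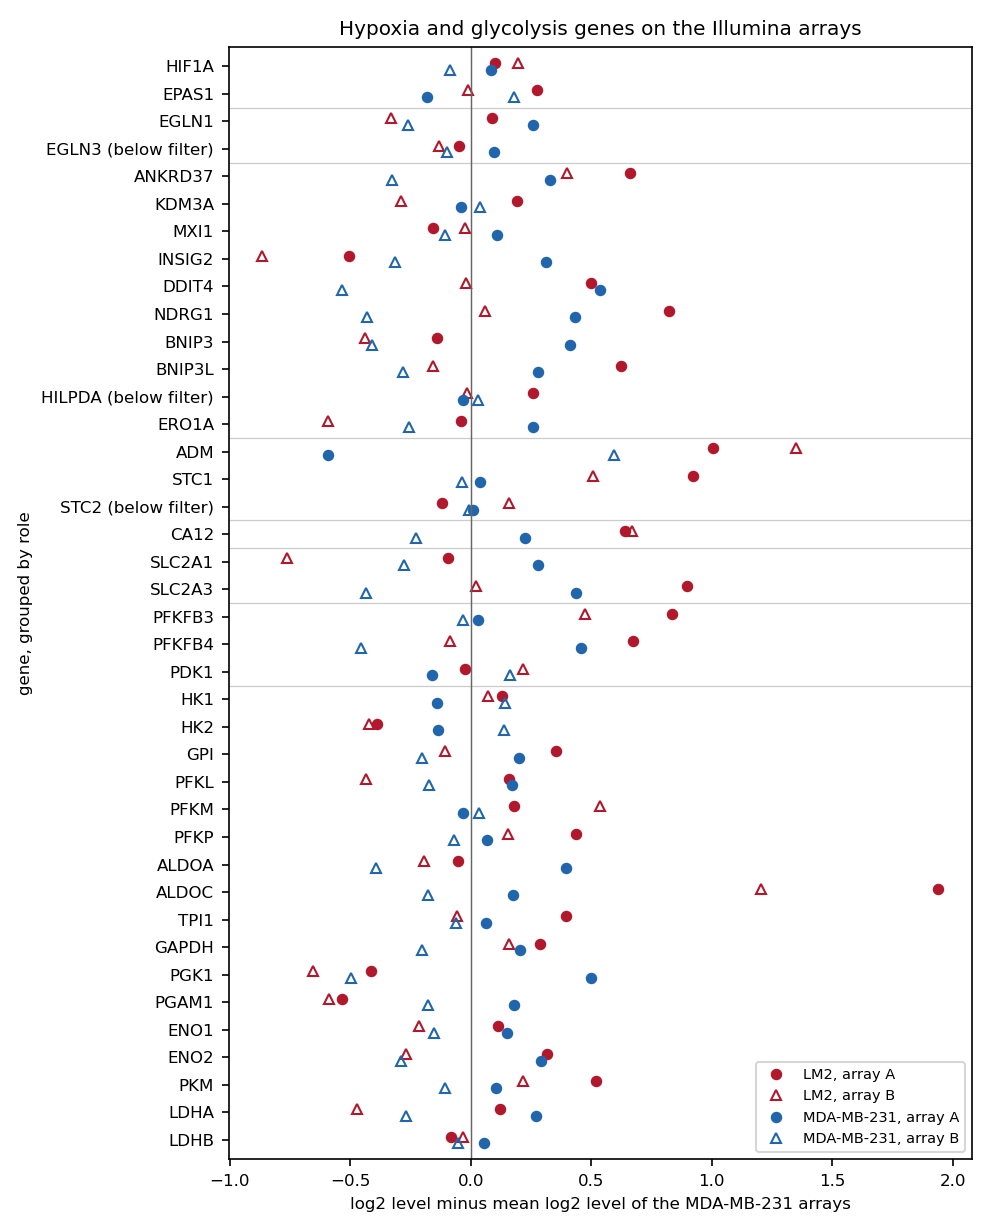
Log2 level of each measured gene of the list (rows, grouped by role) on the 4 Illumina arrays, minus the mean log2 level of the 2 MDA-MB-231 arrays. Red marks are LM2 and blue marks MDA-MB-231, with filled circles for array A and open triangles for array B, and ALDOC is the only gene that passed the test (log2 difference 1.57).

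In LM2 against MDA-MB-231, which asks what distinguishes the metastatic derivative from its parent, 1 of the 37 genes of the list above the filter passed the test, the aldolase ALDOC, and it was higher in LM2. None passed as lower. The test was limma on log2(intensity + 16) over 12490 genes, with an adjusted p under 0.05 (Benjamini-Hochberg, two-sided). Over all genes tested, 0.841% were called higher and 1.47% lower. EGLN3, HILPDA and STC2 lay below the filter and were not tested. At an unadjusted p under 0.05, 5 genes of the list were higher (ALDOC, ADM, STC1, PFKFB3 and CA12) and 3 lower (INSIG2, HK2 and PGAM1), against 4.61% and 9.82% of all genes. Both LM2 arrays lay above both MDA-MB-231 arrays for 10 of 37 genes (27%; 15.9% of all genes) and below them for 3 (8.11%; 28.1% of all genes). The median log2 difference of the list was 0.12, against -0.04 over all genes tested.

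ALDOC encodes aldolase C, an isozyme that splits fructose 1,6-bisphosphate and is best known from brain. Its intensity was 2359 and 1413 on the LM2 arrays, against 684 and 532 on the MDA-MB-231 arrays. Both LM2 arrays were thus above both MDA-MB-231 arrays, and LM2 array B was well below array A. The means were 10.85 ± 0.52 and 9.27 ± 0.25 log2 (SD, n = 2 each), and the log2 difference was 1.57 (SE 0.28, limma adjusted p = 0.0144), or 2.97-fold higher in LM2. Without LM2 array A the difference was 1.21 and did not pass (limma adjusted p = 0.174), and with a variance prior that has no trend the adjusted p was 0.0721. Its paralog ALDOA, the main aldolase of most cells, had 11526 and 10450 in LM2, against 15713 and 9093 in MDA-MB-231, so that its groups overlapped.

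Of the secreted peptides of the list, ADM and STC1 were above the filter, and neither passed. ADM, a vasodilator and classical HIF target, had intensities of 4075 and 5178 in LM2, against 1336 and 3059 in MDA-MB-231. The groups did not overlap, but the MDA-MB-231 arrays lay 1.18 log2 apart, as far as the groups (1.18, SE 0.35, limma adjusted p = 0.125). ADM differed by 1.77 with MDA-MB-231 array B left out (limma adjusted p = 0.00151), and by 0.58 with array A left out. In such fits the line with 1 array is assumed to vary like the other line. The spread then comes from the 2 arrays of that other line and from the spread shared across genes. STC1, stanniocalcin 1, a secreted regulator of calcium and phosphate, had 1076 and 803 in LM2, against 574 and 545 in MDA-MB-231, a log2 difference of 0.72 (limma adjusted p = 0.153). STC2 lay below the filter.

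Of the HIF subunits, neither passed. HIF1A had 681 and 730 in LM2, against 674 and 598 in MDA-MB-231, with the lowest LM2 array barely above the highest MDA-MB-231 array. Its log2 difference was 0.15 (limma 95% interval -0.32 to 0.61), while its other probes gave -0.17 and -0.22, so its sign depends on the probe. EPAS1 had 1403 and 1147 in LM2, against 1018 and 1312 in MDA-MB-231, which overlap. The hydroxylase EGLN1 had 164 and 118 in LM2, against 187 and 125 in MDA-MB-231, and also overlapped.

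Among the 9 other hypoxia-induced genes above the filter, INSIG2 was furthest below MDA-MB-231. INSIG2, a membrane protein that holds back sterol synthesis, had 811 and 629 in LM2, against 1442 and 929 in MDA-MB-231. Its groups did not overlap. The log2 difference was -0.68 (SE 0.26, limma adjusted p = 0.255), and -0.997 once MDA-MB-231 array B was left out. ANKRD37, an ankyrin-repeat gene induced in hypoxia, was the one gene of this set with both LM2 arrays on top, at 707 and 586 in LM2, against 558 and 348 in MDA-MB-231. The other 7 overlapped between groups. DDIT4, an inhibitor of mTORC1, had 3506 and 2441 in LM2, against 3593 and 1702 in MDA-MB-231. NDRG1, a stress-responsive growth regulator, had 1023 and 596 in LM2, against 777 and 420 in MDA-MB-231. In both genes array A was high and array B low in either line. BNIP3, a receptor for mitophagy, showed the same with 7021 and 5714 in LM2, against 10289 and 5824 in MDA-MB-231.

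For acid handling and glucose entry the picture was mixed. CA12, a surface carbonic anhydrase, had 1517 and 1547 in LM2, against 1136 and 825 in MDA-MB-231, a log2 difference of 0.65 (limma adjusted p = 0.223), with 0.23 from its second probe. The glucose transporter SLC2A1 (GLUT1) had 3142 and 1974 in LM2, against 4076 and 2769 in MDA-MB-231. Each LM2 array was below the MDA-MB-231 array of the same letter, but LM2 array A was above MDA-MB-231 array B, and the log2 difference of -0.43 did not pass (limma adjusted p = 0.570). SLC2A3 (GLUT3) went the other way without passing, with 2016 and 1091 in LM2, against 1460 and 791 in MDA-MB-231.

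Of the 3 regulators of glycolysis none passed, and of the 17 enzymes ALDOC did. PFKFB3, which makes the fructose 2,6-bisphosphate that activates phosphofructokinase, had 2307 and 1793 in LM2, against 1313 and 1257 in MDA-MB-231, a log2 difference of 0.66 (limma adjusted p = 0.212). PDK1, the kinase that shuts pyruvate dehydrogenase, had 114 and 137 in LM2, against 102 and 132 in MDA-MB-231, and overlapped. Among the enzymes, ALDOC, PFKM, PFKP and PKM had both LM2 arrays on top, and HK2 and PGAM1 had both below. PGAM1, phosphoglycerate mutase, had 4966 and 4791 in LM2, against 8162 and 6363 in MDA-MB-231, a log2 difference of -0.56 (limma adjusted p = 0.311). PGK1, the first ATP-forming enzyme of the pathway, had 2725 and 2303 in LM2, against 5144 and 2570 in MDA-MB-231. The low group overlapped the MDA-MB-231 group through MDA-MB-231 array B. The log2 difference was -0.53 with all arrays and -1.03 without that array. A second PGK1 probe above the filter gave -0.07, with 1486 and 822 in LM2, against 1360 and 990 in MDA-MB-231. The size of the PGK1 difference thus depends on the probe. LDHA, the lactate dehydrogenase subunit that favours lactate formation, had 17587 and 11661 in LM2, against 19505 and 13404 in MDA-MB-231, a log2 difference of -0.17 (limma 95% interval -0.79 to 0.44).

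**Figure D2:**
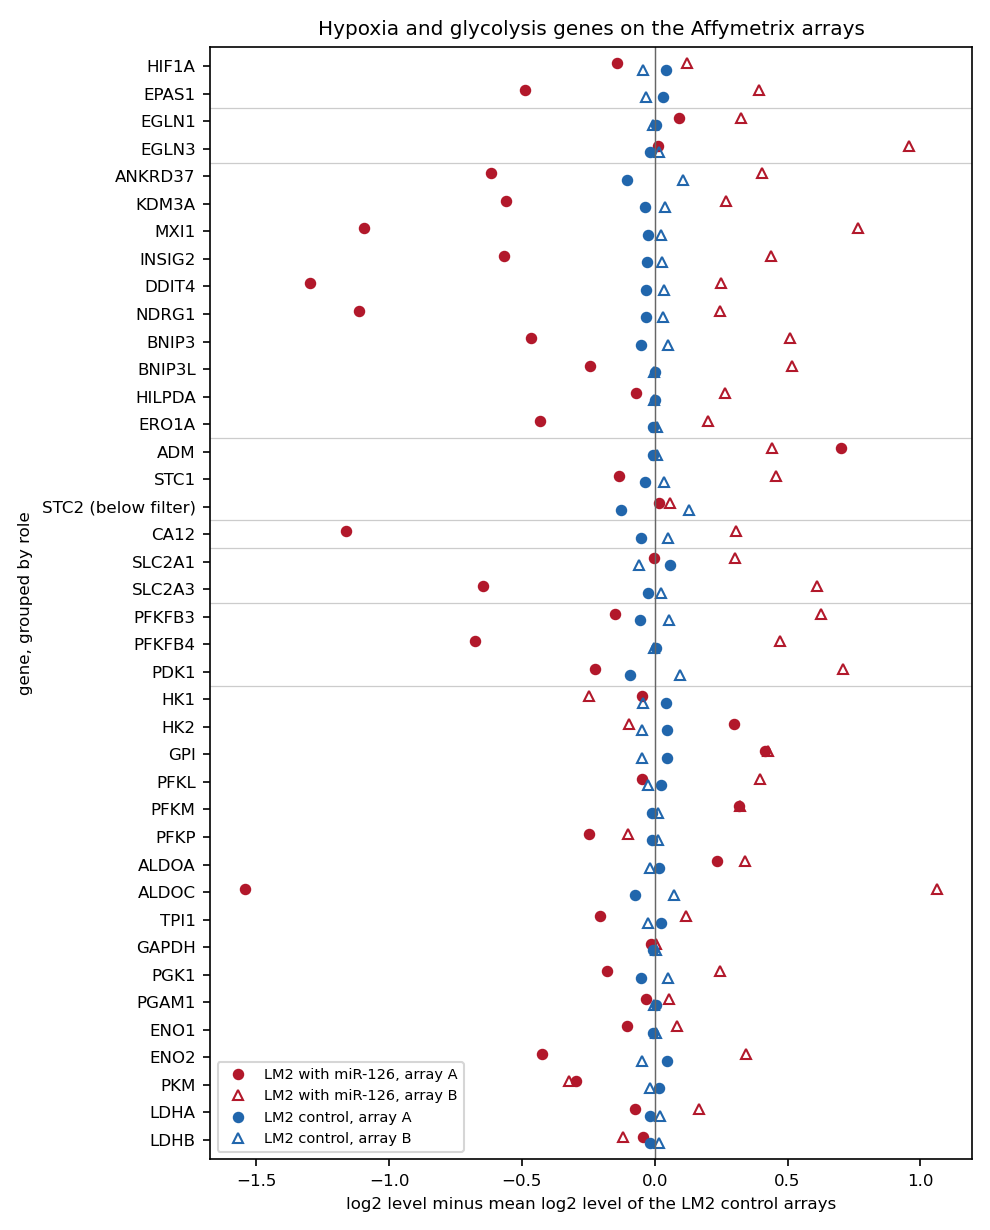
Log2 level of each measured gene of the list (rows, grouped by role) on the 4 Affymetrix arrays after quantile normalization, minus the mean log2 level of the 2 LM2 control arrays. Red marks are LM2 with miR-126 and blue marks LM2 control, with filled circles for array A and open triangles for array B. The control marks lie close together, and the miR-126 marks lie on either side of them for most hypoxia-induced genes.

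In LM2 cells with miR-126 against LM2 control, which asks what the microRNA changes in the metastatic line, no gene of the list passed the test, of 39 above the filter. Nor did any of the 12923 genes tested with limma (0.0%), while at an unadjusted p under 0.05, 4 genes of the list were higher and 1 lower, against 3.37% and 4.44% of all genes. STC2 lay below the filter. Both miR-126 arrays lay above both control arrays for 5 genes (12.8%; 21.4% of all genes), EGLN1, ADM, GPI, PFKM and ALDOA, and below them for 4 (10.3%; 19.0% of all genes), HK1, PFKP, PKM and LDHB. The median log2 difference was -0.01, against 0.02 over all genes tested. These counts rest on which array is used: without miR-126 array A 32 genes of the list were called higher and 3 lower, without miR-126 array B 5 were called higher and 21 lower, and without either control array none was called. In the fits with 1 miR-126 array, that array is assumed to vary like the control arrays, which are close to each other, and over all genes the calls numbered 2299 higher and 2337 lower without array A and 2559 higher and 2247 lower without array B.

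Intensities on these arrays are given relative to each array's median probe, as deposited, and log2 differences after quantile normalization. ADM had 50.1 and 38.3 in miR-126 cells, against 28.6 and 30.1 in control cells, with both miR-126 arrays on top. Its log2 difference was 0.57 (SE 0.11, limma adjusted p = 0.479), and it was 0.44 without miR-126 array A and 0.70 without array B. ADM thus stood above its comparison group in both tables, as did PFKM. Taken apart, 15.9% of all genes did so on the Illumina and 21.4% on the Affymetrix arrays.

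Among glycolytic enzymes, GPI, which turns glucose 6-phosphate into fructose 6-phosphate, had 38.2 and 34.7 in miR-126 cells, against 27.4 and 26.9 in control cells, a log2 difference of 0.42 (limma adjusted p = 0.479). The muscle-type phosphofructokinase PFKM had 13.9 and 11.8 in miR-126 cells, against 10.1 and 10.7 in control cells, a log2 difference of 0.32 (limma adjusted p = 0.574). PKM, pyruvate kinase, had 91.5 and 86.3 in miR-126 cells, against 108.4 and 109.9 in control cells, a log2 difference of -0.31 (limma adjusted p = 0.462), with -0.17 from its second probe set. In these 3 genes the arrays of a group lay closer to each other than the groups did, and leaving out any array left the PKM difference between -0.33 and -0.29. ALDOA had 91.0 and 93.7 in miR-126 cells, against 75.5 and 75.7 in control cells. GAPDH was at 178.7 and 178.5 in miR-126 cells, against 180.2 and 183.2 in control cells, close to the highest value in the table (196.2).

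DDIT4 and NDRG1 differed between the groups by less than between the miR-126 arrays. DDIT4 had 26.8 and 71.3 in miR-126 cells, against 59.8 and 64.6 in control cells, a log2 difference of -0.52 with an SE of 0.49 (limma adjusted p = 0.825). NDRG1 had 17.7 and 40.7 in miR-126 cells, against 34.3 and 36.9 in control cells, a log2 difference of -0.43 (limma adjusted p = 0.838). In both, miR-126 array A was well below and array B slightly above the pair of control arrays.

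CA12 had 4.58 and 10.9 in miR-126 cells, against 9.12 and 10.2 in control cells, a log2 difference of -0.43 (limma adjusted p = 0.858). All 5 of its probe sets above the filter were below control on average, by -0.32 to -0.77, and 1 of the other 2 was at 0.02. In most of the 5, the set used among them, miR-126 array B was above both control arrays. The lower mean there came from array A, so these sets give no direction for CA12. ALDOC had 2.32 and 12.5 in miR-126 cells, against 6.17 and 7.15 in control cells, a log2 difference of -0.24 with a limma 95% interval from -2.38 to 1.90. One miR-126 array was below both control arrays and the other above both, so that these arrays give no direction for ALDOC.

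HIF1A had 65.3 and 73.6 in miR-126 cells, against 71.3 and 68.9 in control cells, and a log2 difference of -0.01 (limma 95% interval -0.29 to 0.27). EPAS1 had 11.04 and 17.4 in miR-126 cells, against 14.4 and 14.5 in control cells. Of its 3 probe sets, 2 were below the filter, and 1 of these was at 0.03 against -0.05 for the set used. The hydroxylase EGLN3, itself a HIF target, had 1.30 and 2.35 in miR-126 cells, against 1.27 and 1.30 in control cells, a log2 difference of 0.48 (limma adjusted p = 0.736) that came from array B.

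SLC2A1 had 8.71 and 9.11 in miR-126 cells, against 8.354 and 8.005 in control cells, higher on both miR-126 arrays as deposited, while after quantile normalization array A fell between the control arrays. PDK1 had 3.71 and 6.07 in miR-126 cells, against 3.81 and 4.49 in control cells. PGK1 had 87.7 and 111.5 in miR-126 cells, against 92.8 and 101.8 in control cells, and LDHA had 130.8 and 147.7 in miR-126 cells, against 132.5 and 136.7 in control cells. In PDK1, PGK1 and LDHA the control arrays lay between the miR-126 arrays.

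**Figure D3:**
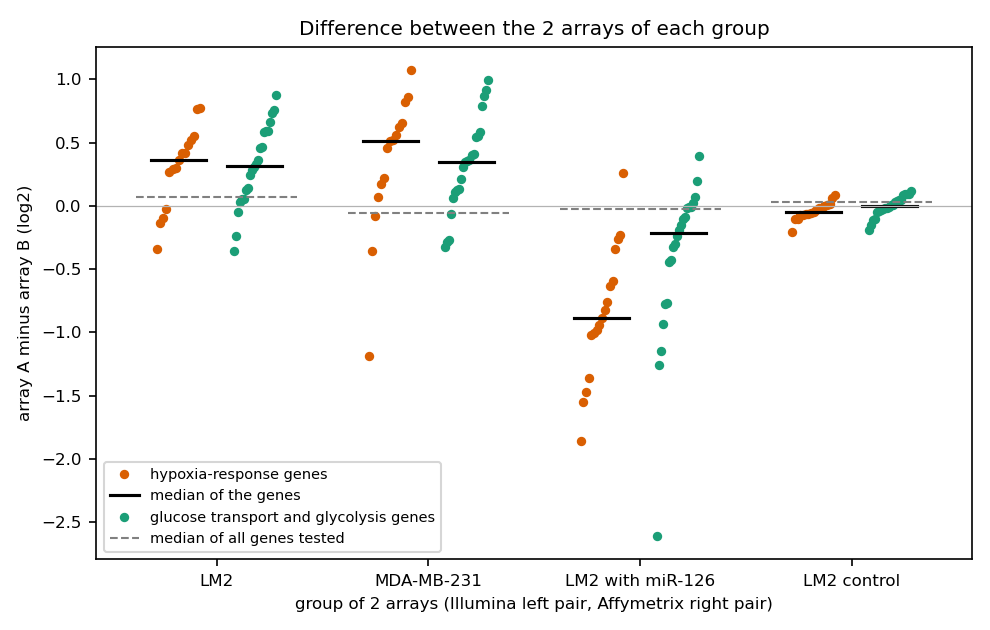
Log2 level on array A minus that on array B within each of the 4 groups, for each gene of the list above the filter. Orange points are hypoxia-response genes, green points glucose transport and glycolysis genes, black bars their medians and dashed lines the median of all genes tested. In miR-126 cells nearly all points lie below 0, with ALDOC lowest at -2.61, and in control cells all lie within 0.21 log2 of 0.

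The arrays of a group differed over the list in LM2, in MDA-MB-231 and in miR-126 cells, and little in control cells. In miR-126 cells, array B was above array A for 34 of 39 genes (87.2%; 52.9% of all genes tested), with a median A minus B difference of -0.45 log2, against -0.02 over all genes. The exceptions were ADM, HK1, HK2, PKM and LDHB. By more than 1 log2, array B was above array A for 9 of 39 genes (23.1%; 1.28% of all genes). All 10 hypoxia-induced genes shared the direction, with a median of -0.99, the 3 regulators PFKFB3, PFKFB4 and PDK1 had a median of -0.93, and the 17 enzymes a median of -0.11. Of all 12923 genes, ALDOC had the furthest excess of array B over array A (-2.61), MXI1, a MYC antagonist induced in hypoxia, ranked 27th (-1.86), DDIT4 45th (-1.55), CA12 54th (-1.47), NDRG1 65th (-1.36), SLC2A3 78th (-1.26) and PFKFB4 99th (-1.15).

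For 27 of 39 genes (69.2%; 33.9% of all genes) both control arrays lay between the 2 miR-126 arrays, among them all 10 hypoxia-induced genes. The control arrays themselves differed by a median of 0.05 log2 over the list. For MXI1 the intensities were 3.45 and 10.9 in miR-126 cells, against 6.81 and 7.33 in control cells. On the deposited scale, without quantile normalization, array B was above array A for 31 of 39 genes, with a median of -0.35 where all genes had 0.12, and the control arrays lay between for 23 (59.0%; 38.9% of all genes), so the direction held under both scalings. On that scale the control arrays shared it, with array B above array A for 32 of 39 genes (82.1%; 55.2% of all genes) and all 10 hypoxia-induced genes, by a median of -0.06 over the list, where after quantile normalization array B was above for 23 of 39. Summed over the fibroblast markers, led by COL1A1, intensity was 30.8 on array A and 49.8 on array B of the miR-126 cells, against 34.7 to 38.9 in control cells. Over the blood markers it was 2.95 and 5.49 in miR-126 cells, against 3.84 to 3.91 in control cells. The difference in the blood sum came mostly from CD14 (0.82 on array A and 2.93 on array B of the miR-126 cells). On the same arrays CD3E was at 1.86 and 2.31, and PTPRC at 0.27 and 0.25. CD14 and CD3E were above the filter and PTPRC below it. The part of these markers in the array difference was not tested.

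On the Illumina arrays the same genes split the other way by letter, which carries no meaning across tables. In LM2, array A was above array B for 30 of 37 genes (81.1%; 64.5% of all genes), with a median of 0.33 against 0.07 over all genes. In MDA-MB-231, array A was above array B for 30 of 37 genes (81.1%; 40.6% of all genes), with a median of 0.36 against -0.06 over all genes. With quantile normalization the counts were 26 in LM2 and 31 in MDA-MB-231, against 49.1% and 49.5% of all genes. The differences were furthest in MDA-MB-231 for DDIT4 (1.07), PGK1 (0.997), PFKFB4 (0.91), SLC2A3 (0.87) and NDRG1 (0.86). ADM ran against them, with array B above array A by 1.18 log2 in MDA-MB-231 and by 0.34 in LM2.

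Across the 37 genes, the A minus B difference in LM2 correlated with that in MDA-MB-231 with a Spearman coefficient of 0.52, against 0.10 over 9773 genes tested in both tables. Between miR-126 and control cells the coefficient over the same 37 genes was 0.57, against 0.09 over all these genes. These are descriptions across genes within a table, whose arrays share a platform and a letter, and genes are not independent replicates. The median absolute difference over the list was 0.29 log2 between LM2 and MDA-MB-231, against 0.36 between the LM2 arrays and 0.40 between the MDA-MB-231 arrays. Over all genes tested these medians were 0.15, 0.15 and 0.18. The LM2 arrays differed more than the groups for 54.1% of the list and 47.6% of all genes. In the miR-126 table the median was 0.15 between the groups, against 0.45 between the miR-126 arrays and 0.05 between the control arrays, and over all genes 0.12, 0.22 and 0.07. The miR-126 arrays differed more than the groups for 82.1% of the list and 68.4% of all genes, so larger differences within than between groups were not particular to the list there. What set the arrays of a group apart is not given by the labels and was not tested.

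**Figure D4:**
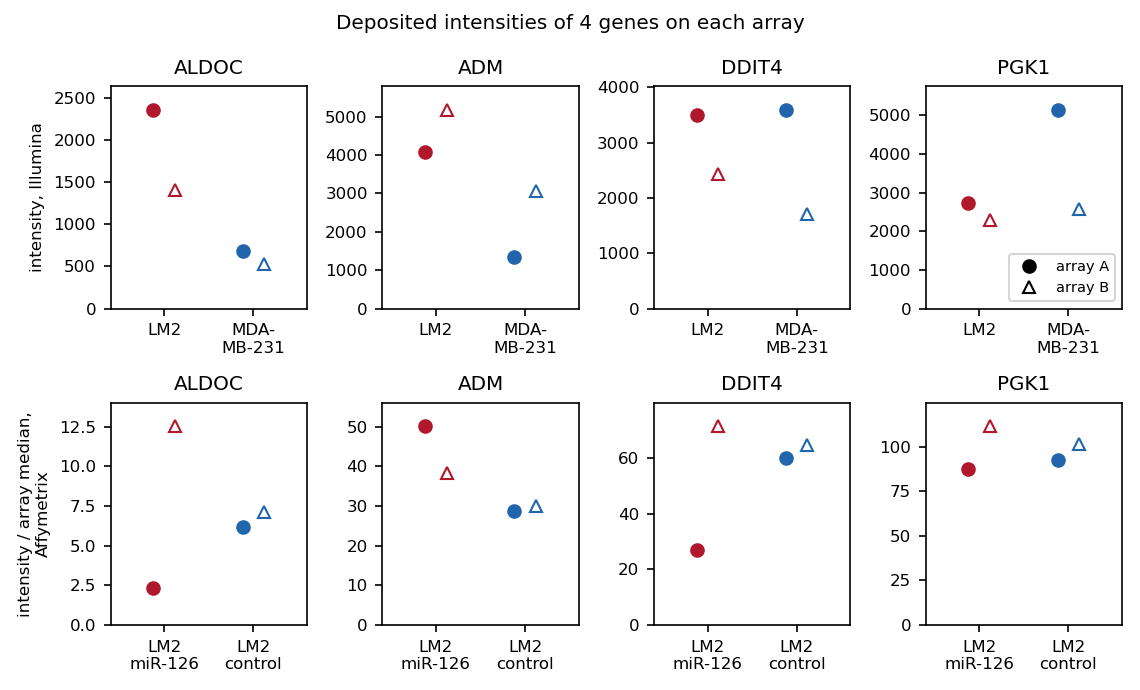
Deposited intensities of ALDOC, ADM, DDIT4 and PGK1 on each array, with LM2 and MDA-MB-231 in the top row (Illumina) and LM2 with miR-126 and LM2 control in the bottom row (Affymetrix, relative to the array median), each axis starting at 0. Circles are array A and triangles array B. ALDOC is higher on both LM2 arrays than on both MDA-MB-231 arrays, while its miR-126 arrays (2.32 and 12.5) lie on either side of the control arrays (6.17 and 7.15).

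Other genes of the pathway were read from fixed lists. Of 40 further hypoxia and HIF pathway genes, 31 were above the filter on the Illumina arrays. There, 1 was called higher in LM2 and 1 lower, against 0.841% and 1.47% of all genes. ANGPTL4, a secreted inhibitor of lipoprotein lipase, had 428 and 338 in LM2, against 121 and 80.1 in MDA-MB-231, and rose by 1.79 log2 (limma adjusted p = 0.00168). Its MDA-MB-231 arrays lay near the median probe (94.4), array B below it, where background remains and folds are compressed. CITED2, which competes with HIF for the coactivator p300, had 679 and 928 in LM2, against 1994 and 1801 in MDA-MB-231, and fell by 1.24 log2 (limma adjusted p = 0.0254). VEGFA, the angiogenic growth factor, had 940 and 740 in LM2, against 575 and 384 in MDA-MB-231, with no overlap and no call (0.81, limma adjusted p = 0.143). VHL differed by 0.23 (limma adjusted p = 0.709), and ARNT lay below the filter. The median over the 31 genes was -0.09, and 22 of them had a log2 difference below 0, against 58.2% of all genes.

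In miR-126 cells none of the 35 further hypoxia genes above the filter was called, and none had an unadjusted p under 0.05 in limma. Of all genes, 3.37% were higher and 4.44% lower at that threshold. VEGFA had 33.7 and 52.4 in miR-126 cells, against 45.5 and 48.7 in control cells, and ANGPTL4 had 2.99 and 4.78, against 4.63 and 5.14 in control cells. Array A was above array B in miR-126 cells for 5 of these 35 genes (47.0% of all genes), with a median of -0.38. The same array difference was therefore seen in hypoxia genes outside the list. For other sugar and pyruvate genes, array A was above array B in 17 of 36 (median -0.10), and for genes of mitochondrial oxidation in 11 of 23 (median 0).

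Of 49 other genes of sugar and pyruvate metabolism, 37 were above the filter on the Illumina arrays. HKDC1, a hexokinase-like gene, had 87.8 and 96.0 in LM2, against 181.6 and 175.4 in MDA-MB-231, and fell by 0.85 log2 (limma adjusted p = 0.00550). Its LM2 arrays lay at about the median probe (94.4), where background remains, so the size is understated. The gene passed the filter through the MDA-MB-231 arrays alone, so the call rests on the group where it is high. Both LM2 arrays were below both MDA-MB-231 arrays for 15 of the 37 genes (40.5%), against 28.1% of all genes. A log2 difference below 0 was found in 25 of the 37, against 58.2% of all genes. None of the 22 genes of mitochondrial oxidation above the filter was called on these arrays with limma. At an unadjusted p under 0.05 in limma, 0 were higher and 2 lower, against 4.61% and 9.82% of all genes.

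In miR-126 cells no gene of these lists was called. By smallest p, the sugar and pyruvate list was led by GFPT1, the first enzyme of hexosamine synthesis, with 7.32 and 6.80 in miR-126 cells, against 12.1 and 14.6 in control cells (-0.88, limma adjusted p = 0.462). PCK2, the mitochondrial PEP carboxykinase, had 3.48 and 2.80 in miR-126 cells, against 5.40 and 5.95 in control cells (-0.84, limma adjusted p = 0.462). PC, pyruvate carboxylase, had 5.27 and 5.79 in miR-126 cells, against 8.58 and 9.27 in control cells (-0.66, limma adjusted p = 0.484). In these 3 genes both miR-126 arrays lay below both control arrays, unlike the hypoxia-induced genes, and the groups lay further apart than their arrays.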

How the data were processed

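Expression was measured in total RNA, labelled with biotin per the labels' protocols, on 4 Illumina and 4 Affymetrix arrays. The authors deposited 1 table of linear intensity values per platform, and no source used here gives their background correction or normalization. Per the values, deposited Illumina intensities share 1 median (94.4) and reach down to 43.2, so background remains and dim genes show compressed folds. Deposited Affymetrix intensities are relative to each array's median. No scanner files or detection calls were used, and the number of arrays limits the precision.

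Illumina values were taken as log2(value + 16) on their deposited scale, and Affymetrix values as log2 after quantile normalization. The probe with the highest mean stood for a gene, probes of several genes were left out (2 Affymetrix probe sets shared by SLC2A3 and SLC2A14), and genes brighter on average than the median probe were tested (12490 and 12923). The test was limma 3.58.1 in R 4.3.3 (lmFit, eBayes with a trend), run within 1 table at a time, with Benjamini-Hochberg adjustment over all genes tested. With 2 against 2 arrays the smallest p of an exact permutation test is 0.3333, so limma's calls rest on the spread shared across genes. The steps were tested on simulated data.

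The gene list, the related lists and the settings were chosen with earlier results of these data known. Genes named with values on every array were those past the threshold, the 4 largest positive and 4 largest negative differences per comparison, the HIF subunits, and LDHA, PGK1, PDK1 and SLC2A1 (the rule also held CA9, which was not analysed here); ALDOA, ANKRD37, EGLN1, BNIP3, SLC2A3, GAPDH, MXI1, and DDIT4, NDRG1 and CA12 on the platform where they fall outside this rule were added after their values were seen. Alternatives covered scaling, pseudocount, filter, probe rule, variance prior, the array letter as a block and each array left out in turn. Counts of array differences on the other scale of each table were added after seeing the data. Promoters and miRNA sequences came from RefSeq tables on GRCh38.p14.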

Additional observations from a re-analysis of the deposited data

How the results depend on the processing

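With 2 arrays a group, leaving out 1 array was the choice that moved most. The count of listed genes called higher in LM2 was 1, from 0 (without LM2 array A) to 2 (without MDA-MB-231 array B, where ADM passed too) when 1 array was left out, 0 with a variance prior without a trend and 2 (ADM added) with the array letter as a block, and that called lower was 0 to 2 (INSIG2 and PGK1, without MDA-MB-231 array B). The list's median moved between -0.05 and 0.23. In miR-126 cells the counts were 0 to 32 higher and 0 to 21 lower, and the median -0.18 to 0.32. No setting that kept all 4 arrays gave a call among the listed genes in miR-126 cells, and their median was 0.02 when each gene's probes were averaged and 0.01 with every probe apart. Whether the array letter pairs the samples is not given by the labels, and 2 pairs cannot settle it. Over all genes tested, same-letter deviations correlated at 0.13 on the Illumina and 0.06 on the Affymetrix arrays. Over 37 listed genes the A minus B differences correlated more (Spearman 0.52 and 0.57). As a block the letter raised the counts over all genes to 209 higher and 411 lower in LM2, against 105 and 184. In miR-126 cells it raised them to 15 and 36, against 0 and 0, and left the count of listed genes called there at 0. Over all genes in LM2, quantile normalization gave 131 higher and 131 lower, the prior without a trend 41 and 66, and averaging each gene's probes 66 and 118. A log2 difference changed sign for 17 of 37 listed genes in LM2 and 29 of 39 in miR-126 cells when 1 array was left out, and for 3 and 4 under any other setting. With the mean of its probes HIF1A was at -0.0791 in LM2. Over the fits without 1 array, LM2 against MDA-MB-231 ranged from -0.0481 to 0.31 for EPAS1, -0.0644 to 0.26 for PDK1 and -0.47 to 0.12 for LDHA. Likewise, miR-126 against control ranged from -0.14 to 0.12 for HIF1A, -0.49 to 0.39 for EPAS1, -1.30 to 0.25 for DDIT4, -1.11 to 0.25 for NDRG1, -1.16 to 0.31 for CA12, -1.54 to 1.06 for ALDOC, -0.00291 to 0.30 for SLC2A1, -0.23 to 0.71 for PDK1, -0.18 to 0.25 for PGK1 and -0.0753 to 0.17 for LDHA. These fits use fewer samples and let a lone array borrow the other group's spread, and the cause of the differences between arrays was not tested.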
